A study of Mus musculus with 16 samples.

Results

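Mice given IL-23 were compared with mice given vehicle, where every animal had also received an intraperitoneal drug vehicle that held 0 mpk of compound. The comparison took the 4 libraries labelled IL-23 and the 4 labelled vehicle with that dosing route, 8 of the 16 libraries in the series, and covered 14671 of the 26357 genes in the count table, those that passed a filter on low counts. The other 8 libraries, 4 with IL-23 and 4 with vehicle, had the same 0 mpk drug vehicle dosed orally, and they entered the fit and the comparison of routes. The series title speaks of a psoriasis-like dermatitis driven by IL-23. Its labels name no tissue, strain, age, sex, IL-23 dose or harvest day, and give no animal or batch for a library, so a p-value speaks only of the spread among these samples, which may be technical. Libraries are named below by the number that opens their title: 25, 28, 31 and 61 for IL-23, and 49, 50, 59 and 67 for vehicle. Values for single libraries follow these orders throughout, in CPM (the gene's share of a library's counts on the counts-per-million scale, with TMM factors).

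IL-23 is a cytokine of myeloid cells that keeps type 17 lymphocytes active, among them T helper 17 cells and γδ T cells of the skin. These release IL-17A, IL-17F and IL-22, which act on receptors of keratinocytes. Keratinocytes answer with antimicrobial peptides, neutrophil-attracting chemokines and a thickened epidermis, and this circuit is known for its part in psoriasis, where antibodies to IL-23 and IL-17 are used as treatments.

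Total counts ran from 6381990 to 8865773 in the 4 IL-23 libraries and from 7159325 to 13980863 in the 4 vehicle libraries. Every pair of libraries within a group differed by more than sampling noise, with a chi-square per degree of freedom between 6.01 and 47.2. In a principal component analysis of the 8 libraries the first component, with 70.7% of the variance, separated the agents. IL-23 library 28 stood apart on the second, with 13.1% of the variance, at -55.1 against 10.4 to 32.8 in libraries 25, 31 and 61. It held high levels of interferon-inducible, T cell and macrophage genes, so every result is given with it and, where that matters, without it. The samples carried markers of several tissues: the mean log2 CPM per list in vehicle libraries was 7.72 to 8.10 for epidermal differentiation, 7.37 to 7.73 for skeletal muscle, 6.01 to 6.45 for adipocytes and 5.62 to 6.23 for cartilage.

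Of the 14671 genes tested, 9056 were called at an adjusted p below 0.05 (61.7%; edgeR quasi-likelihood test, Benjamini-Hochberg adjustment over all genes tested). Of these, 4519 were higher (30.8% of genes tested) and 4537 lower (30.9%) in IL-23 libraries, and 1131 and 1697 of them differed by at least 2-fold. The 4 IL-23 values lay entirely above the 4 vehicle values for 3689 genes and entirely below for 3798. Without library 28 the calls came to 8983 (61.2%), 4496 higher (30.6%) and 4487 lower (30.6%). The median log2 fold change over all genes was -0.02, and -0.02 again without library 28. These directions are relative to TMM scaling: with plain library sizes the median moved to -0.23 and the calls split into 2871 higher and 6248 lower, so 31.5% of the calls were higher against 49.9%. Gene lists, described by counts and medians below, are to be read against these shares, since more than 3 in 10 genes were called in each direction.

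**Figure D1:**
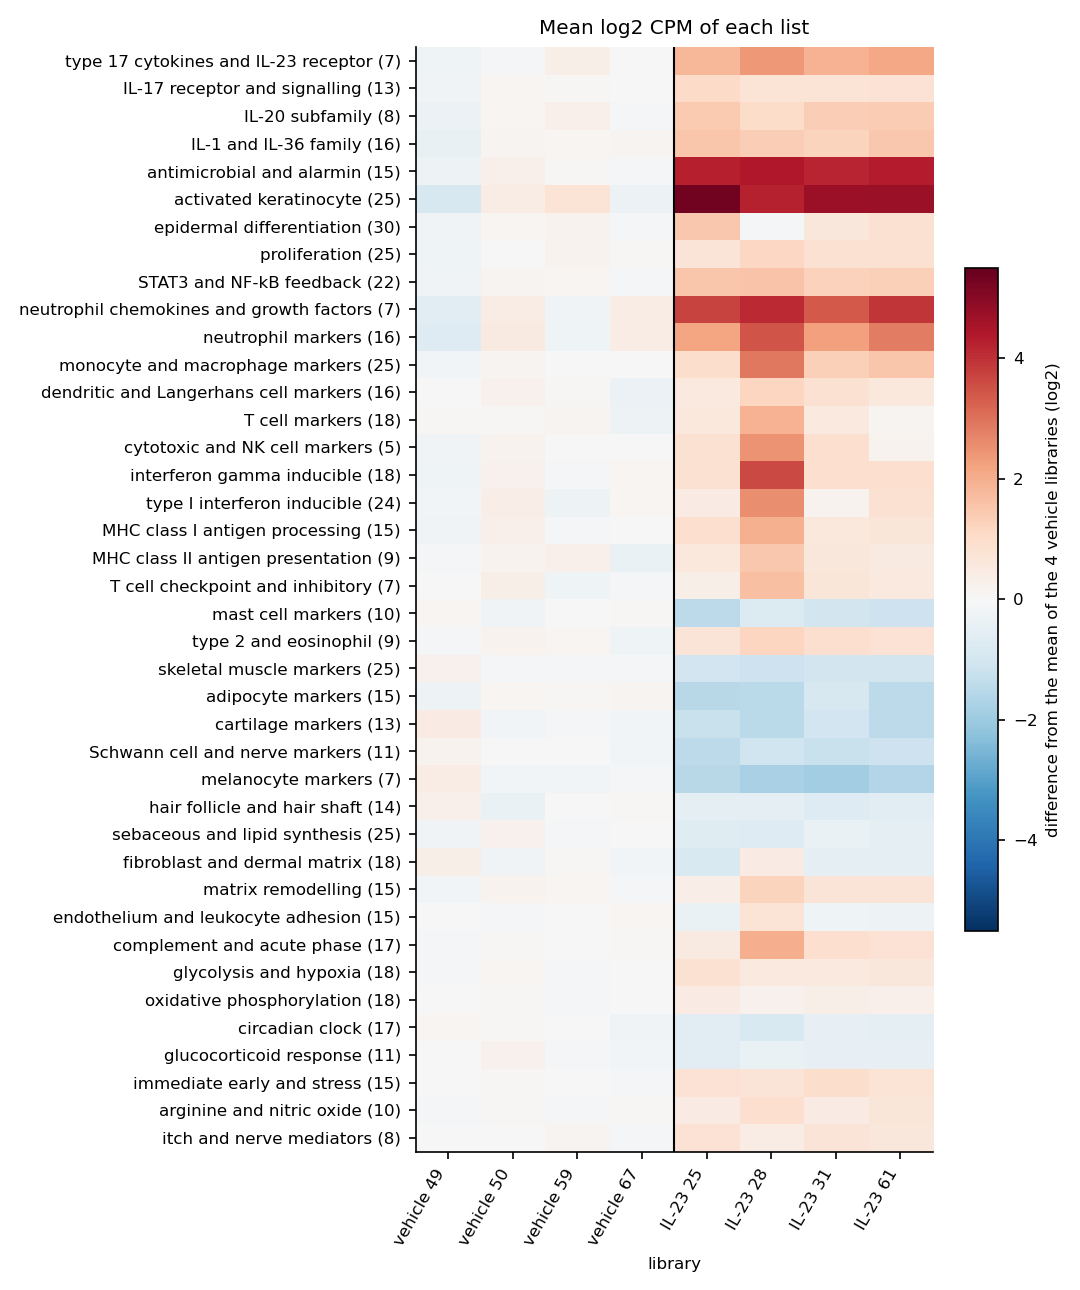
Mean log2 CPM of each gene list (number of members tested in brackets) in the 8 intraperitoneal libraries, shown as the difference from the mean of the 4 vehicle libraries. Activated keratinocyte, antimicrobial and neutrophil chemokine lists stood higher in all 4 IL-23 libraries, muscle, fat, cartilage, nerve and pigment cell lists stood lower in all 4, and interferon and T cell lists stood highest in library 28.

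The type 17 cytokine genes Il17a, Il17f and Il22 were near 0 in vehicle libraries and were counted in every IL-23 library. Il17f (IL-17F; gene ID 257630, chromosome 1, 20777146 to 20785274 in GRCm38.p6) stood at 0.262, 0, 0.159 and 0.1001 CPM in vehicle libraries and at 5.68, 16.6, 7.49 and 7.296 CPM in IL-23 libraries. The groups did not overlap, and library 28 was the highest (log2 change 5.83 ± 0.51, adjusted p = 1.13e-07; 5.39 ± 0.43 without it). Il22 (gene ID 50929, chromosome 10, 118204584 to 118210047), the cytokine that acts on epithelia, had 1 count in the vehicle group and 261 in the IL-23 group. The ratio of its pooled levels was 405, with a 95% exact binomial interval of 72.1 to 16066 that covers counting error only. Its levels in IL-23 libraries were 4.54, 14.8, 8.56 and 5.47 CPM (log2 change 7.91 ± 0.70, adjusted p = 5.83e-07). The single vehicle count was in library 67, and without that library the fitted value was 9.33.

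Il17a, the gene of the cytokine for which the circuit is named, stayed under the count filter, with 0 counts in the vehicle group and 50 in the IL-23 group, 37 of them in library 28. Its level was at least 25.9-fold higher against a floor of 3 counts over the vehicle group, and at least 9.56-fold higher without library 28 (adjusted p = 6.09e-04 and 0.00111 in the edgeR fit with no filter). The filter asks that enough of all 16 libraries pass a count level scaled to library size. Il17a had 3, 37, 5 and 5 counts in the IL-23 libraries and 0 to 0.725 CPM in the oral IL-23 libraries, and did not pass. Csf3, with 8, 19, 11 and 11 counts and 1.33 to 2.66 CPM in the oral IL-23 libraries, did. Il23r, the gene of the receptor subunit that binds IL-23, was also under the filter, with 10 counts with vehicle and 49 with IL-23, 32 of them in library 28. The ratio of its levels was 7.61 (3.81 to 16.8), and 3.75 without library 28 (adjusted p = 9.16e-04 and 0.0174 in the fit with no filter). In this list 7 of 13 members passed the filter. Of those, 5 rose and 2 fell, with and without library 28 (median log2 fold change 2.39, and 1.96 without it). Il23a, the subunit particular to IL-23 itself, rose (1.74), while the aryl hydrocarbon receptor gene Ahr fell (-0.55). The other member that fell did so by more (-1.20).

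Ccl20, the keratinocyte chemokine that draws CCR6-bearing type 17 cells, stood at 2.81, 2.903, 13.7 and 3.502 CPM in vehicle and 96.6, 35.8, 29.95 and 34.7 CPM in IL-23 libraries. Vehicle library 59 was high within its group and IL-23 library 25 within its own, yet the groups did not overlap (log2 change 3.05 ± 0.59, adjusted p = 2.81e-04). Without vehicle library 59 the fitted change was 4.00.

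**Figure D2:**
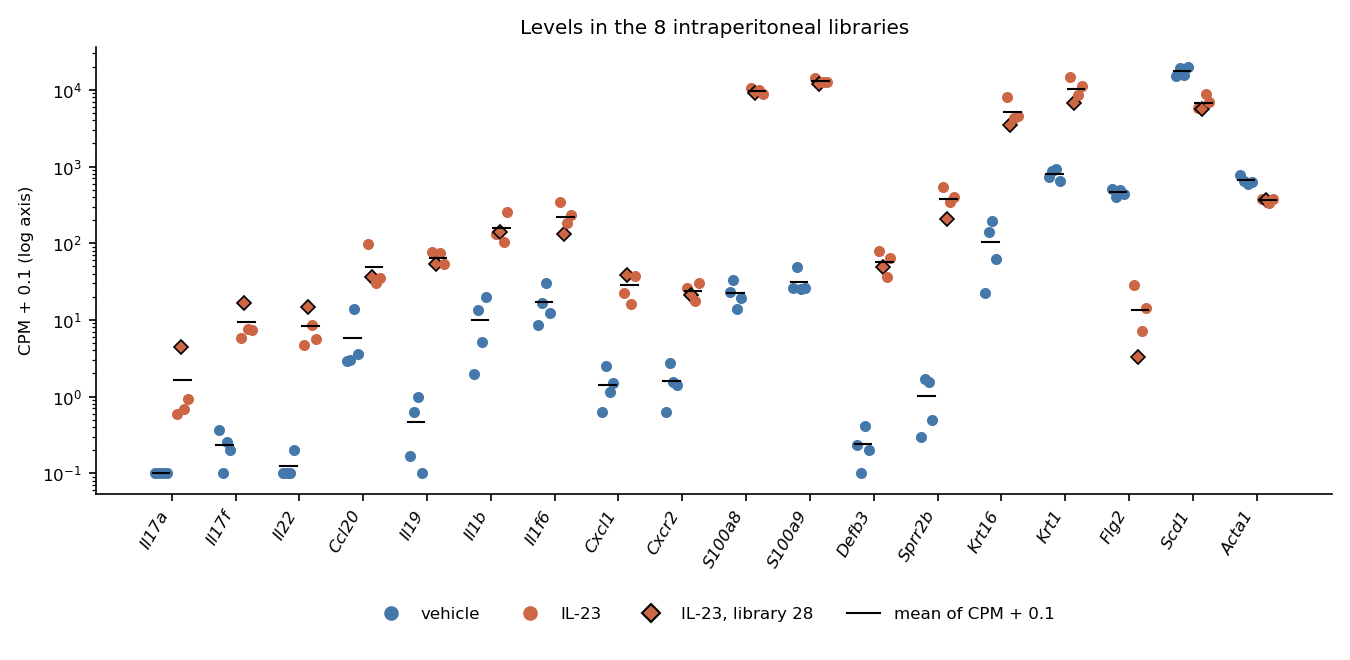
CPM plus 0.1, on a log axis, of 18 named genes in each of the 8 intraperitoneal libraries, with bars at the group means. The groups do not overlap for any gene plotted, with Flg2, Scd1 and Acta1 lower and the other genes higher in IL-23 libraries, and library 28 (diamonds) is the highest IL-23 library for Il17a, Il17f, Il22 and Cxcl1.

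Among IL-17 receptor and signalling genes, 10 of 13 rose and 2 fell (median 0.73; 8 rose under plain library sizes). Zc3h12a, which encodes the RNase Regnase-1 that limits this signalling, went from 20.5, 35.2, 33.99 and 27.2 to 259, 244, 254 and 313 CPM, with an even rise in all 4 libraries (log2 change 3.20 ± 0.17, adjusted p = 8.22e-10). Nfkbiz, which encodes the IκBζ cofactor of IL-17 target genes, rose by 2.01 in log2. Il17c, an epithelial member of the IL-17 family, stood at 0.262, 0.396, 0.159 and 0.2001 CPM in vehicle and 6.81, 1.4997, 2.85 and 2.32 CPM in IL-23 libraries, lowest in library 28 (log2 change 3.69 ± 0.64, adjusted p = 1.11e-04). The receptor genes moved in both directions: Il17ra (0.55) and Il17rc (0.94), the pair that binds IL-17A and IL-17F, rose, whereas Il17rb (-1.82), the receptor for IL-17E, and Il17rd (-1.09) fell.

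In the IL-20 subfamily, whose members signal through STAT3 in keratinocytes, 5 of 8 tested genes rose and 2 fell (median 0.77). Without library 28 5 rose and 1 fell (median 0.78). Il19 went from 0.0654, 0.528, 0.874 and 0 to 75.7, 53.8, 73.5 and 53.6 CPM, so that every IL-23 library held more than 50 CPM against less than 1 CPM in every vehicle library (log2 change 7.45 ± 0.54, adjusted p = 1.88e-08; 8.59 without vehicle library 59). Il24, an IL-10-related cytokine, had 2.43, 1.62, 2.38 and 1.33 CPM in IL-23 libraries and 11 counts in the vehicle group, 9 of them in library 59 (log2 change 2.94 ± 0.74, adjusted p = 0.00244; 4.71 without that library). Il20 itself was not called (0.12 ± 0.46), and the receptor gene Il20ra fell (-1.27).

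The IL-1 and IL-36 family held 11 rises and 1 fall among 16 tested members (median 1.58; 9 rises under plain library sizes; median 1.32 with 10 rises without library 28). Il1f6, the gene of IL-36α, a keratinocyte alarm cytokine, went from 8.57, 16.4, 30.2 and 12.3 to 344, 132, 183 and 231 CPM, highest in library 25 and lowest in library 28 (log2 change 3.72 ± 0.33, adjusted p = 1.29e-07). Il1b, whose product is made mainly by myeloid cells, went from 1.896, 13.5, 5.003 and 19.7 to 132, 139, 103 and 255 CPM (log2 change 4.05 ± 0.61, adjusted p = 3.00e-05; 4.70 without vehicle library 67, the highest of its group). The inflammasome gene Nlrp3 rose by 2.99, and the antagonist genes Il1rn (1.71) and Il1f5 (1.87) also rose. Il18 was the member that fell (-0.72). The call of Il1rl1, the receptor for IL-33, was lost without library 28 (1.47 with it and 0.02 without, adjusted p = 0.966).

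Downstream of these receptors, 17 of 22 STAT3 and NF-κB genes rose and 1 fell (median 1.35). Stat3, the transcription factor of IL-22 and IL-6 signalling, went from 223, 267, 237 and 234 to 688, 595, 554 and 709 CPM with little spread (log2 change 1.41 ± 0.09, adjusted p = 5.08e-09). Its feedback inhibitor Socs3 went from 12.4, 25.2, 19.8 and 14.3 to 51.2, 95.98, 65.97 and 79.3 CPM, highest in library 28 (log2 change 2.05 ± 0.21, adjusted p = 5.08e-07; 1.91 without it). Il6 had 1 count with vehicle and 99 with IL-23, a ratio of 154 with an interval of 26.96 to 6131. Library 28 held 56 of the 99 counts, and without it the ratio was 94.8 (adjusted p = 5.26e-05, and 1.09e-04 without library 28). The 1 vehicle count was in library 59, and the fitted log2 change was 6.53 with that library and 7.92 without it. Tnf, the inflammatory cytokine, went from 1.57, 1.72, 2.14 and 1.501 to 10.1, 11.997, 7.49 and 10.9 CPM (log2 change 2.53 ± 0.24, adjusted p = 2.27e-07). The IL-6 receptor gene Il6ra fell (-0.39).

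Genes of activated keratinocytes shifted nearly as one: 24 of 25 rose, none fell, and the median log2 fold change was 4.81. Krt16 (gene ID 16666, chromosome 11, 100246091 to 100248902), a keratin of thickened epidermis, went from 22.04, 139, 196 and 61.7 to 8103, 3529, 4347 and 4558 CPM. The lowest IL-23 level was more than 10-fold above the highest vehicle level (log2 change 5.62 ± 0.67, adjusted p = 2.48e-06). Its partner Krt6a went from 72.5, 136, 148 and 109.6 to 2446, 1483, 1822 and 1427 CPM (log2 change 3.95 ± 0.39, adjusted p = 3.72e-07). The IL-23 values of Krt6a were likewise all above the vehicle values. Sprr2b, a precursor of the cornified envelope, went from 0.196, 1.58, 1.43 and 0.4003 to 548, 205, 342 and 404 CPM and had the largest fitted rise of the named genes (log2 change 8.81 ± 0.38, adjusted p = 6.72e-11). Serpinb3a, a protease inhibitor gene of inflamed epidermis, went from 2.81, 8.05, 6.59 and 2.101 to 652, 434, 515 and 803 CPM (log2 change 6.99 ± 0.37, adjusted p = 6.42e-10). Sprr2 and Serpinb3 genes have near-identical copies whose reads may be shared, so these single-gene values are uncertain. The member not called was Ereg, an EGF receptor ligand (0.61 ± 0.39).

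Epidermal differentiation genes rose more often than they fell. In the list 19 of 30 rose and 2 fell, with a median of 1.07 (17 and 4 under plain library sizes). Krt1, a keratin of the suprabasal layers, went from 729, 878, 930.4 and 656 to 14510.5, 6670.0, 8661 and 11139.5 CPM (log2 change 3.68 ± 0.30, adjusted p = 5.42e-08). Rptn (repetin, a cornified envelope protein) went from 8.89, 15.8, 23.8 and 14.2 to 1246, 406, 972 and 813 CPM (log2 change 5.78 ± 0.46, adjusted p = 5.19e-08). Flg2 (gene ID 229574, chromosome 3, 93197273 to 93221377), a filaggrin-like barrier protein, moved the opposite way, from 503, 395, 502 and 444 to 28.5, 3.23, 7.01 and 14.3 CPM, so that no IL-23 library reached 30 CPM (log2 change -5.18 ± 0.45, adjusted p = 1.13e-07; -5.89 without IL-23 library 25). Krt15, a basal keratin, was the other fall (-1.99).

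Filaggrin itself varied widely within the IL-23 group. Flg stood at 253, 274, 293 and 230.5 CPM in vehicle and 409.8, 32.1, 92.7 and 250.2 CPM in IL-23 libraries, with library 25 above every vehicle library and libraries 28 and 31 below all of them. It was not called (log2 change -0.43 ± 0.48, adjusted p = 0.449), but was without library 25 (-1.08, adjusted p = 0.0439). Library 28 was the lowest IL-23 library for all 30 of the 30 differentiation genes tested, and its list mean of 7.82 log2 CPM lay within the vehicle range of 7.72 to 8.10, against 8.54 to 9.37 in libraries 25, 31 and 61. Without it 23 members rose and 2 fell (median 1.24). In bulk RNA, a different number of cells of a type and a different amount of RNA per cell cannot be told apart, here and for every list below.

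Cell cycle genes rose together: 24 of 25 were called higher and none lower, with a median of 0.96. Mki67, the gene of the Ki-67 proliferation antigen, went from 187, 203, 238 and 216 to 283, 409.9, 359 and 337 CPM (log2 change 0.72 ± 0.15, adjusted p = 6.74e-04). Birc5 (survivin, which acts in mitosis) went from 30.5, 35.5, 38.9 and 36.3 to 82.7, 86.1, 85.8 and 79.8 CPM, with hardly any spread between IL-23 libraries (log2 change 1.25 ± 0.12, adjusted p = 2.08e-07). Rrm2, a ribonucleotide reductase subunit gene, rose by 1.33. Cenpf was the member not called (0.27 ± 0.17).

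Antimicrobial and alarmin genes had the highest median log2 fold change of the lists, 5.64, with 13 of 15 members higher and 1 lower. Without library 28, 12 members were higher and 2 lower (median 5.52). S100a8 (gene ID 20201, chromosome 3, 90669071 to 90670034), one subunit of calprotectin, went from 23.3, 32.99, 13.6 and 19.3 to 10582, 9227, 9975 and 8968 CPM (log2 change 8.78 ± 0.43, adjusted p = 2.52e-10). S100a9, the other subunit, went from 26.02, 49.1, 25.5 and 25.6 to 14303, 11832, 12839.5 and 12803 CPM (log2 change 8.69 ± 0.43, adjusted p = 3.34e-10). The IL-23 values of both genes kept within a narrow band although vehicle library 50 was the highest of its group. Defb3, a β-defensin gene, went from 0.131, 0, 0.318 and 0.1001 to 79.3, 49.6, 36.4 and 63.3 CPM (log2 change 8.41 ± 0.46, adjusted p = 1.03e-09; 9.09 without vehicle library 59). Reg3g, a bactericidal lectin gene, had no count in vehicle libraries and 0.486, 3.81, 2.38 and 2.49 CPM with IL-23, which was at least 36.7-fold higher against the floor of 3 counts and at least 27.9-fold without library 28 (adjusted p = 1.28e-04 and 2.34e-04). Defb3 and Reg3g were at or near 0 in vehicle libraries. Saa1, an acute phase serum amyloid, went from 0.196, 0.6598, 0.238 and 0.3002 to 63.4, 34.7, 46.7 and 50.1 CPM (log2 change 7.23 ± 0.27, adjusted p = 1.70e-11). Saa3 had 39.9, 289, 54.3 and 96.999 CPM in IL-23 libraries, of which library 28 was 2.97-fold above the next (log2 change 3.85 ± 0.57, adjusted p = 2.32e-05; 2.94 without it). Lyz1, a lysozyme gene, was the tested member that fell in the fit with all libraries (-1.91). Camp, the cathelicidin gene, was under the filter with 27 counts with vehicle and 3 with IL-23, 2 of them in library 28. It was lower by a ratio of 5.797 (1.78 to 29.9; adjusted p = 0.0187, and 0.0126 without library 28, in the edgeR fit with no filter). Defb and Saa families hold near-identical copies, which makes their single-gene values uncertain.

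All 7 tested neutrophil chemokine and growth factor genes rose, with a median of 4.65. Cxcl1, a ligand of the neutrophil receptor CXCR2, went from 0.523, 2.38, 1.03 and 1.401 to 22.1, 38.5, 16.2 and 37.6 CPM (log2 change 4.55 ± 0.48, adjusted p = 7.49e-07). Cxcl5, another such ligand, had 5.03, 82.1, 11.6 and 6.798 CPM in IL-23 libraries against at most 0.588 CPM in vehicle libraries. Library 28 stood 7.05-fold above the next (log2 change 6.74 ± 1.14, adjusted p = 8.40e-05). The fitted change was 5.01 without library 28 and 8.39 without vehicle library 49. Csf3, the gene of the granulocyte growth factor G-CSF, had 1 count with vehicle and 49 with IL-23, a ratio of 76.1 with an interval of 13.03 to 3065 (adjusted p = 3.41e-06; fitted log2 change 5.57, and 6.99 without vehicle library 67, which held the 1 count).

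Of 16 tested neutrophil markers, 15 rose (median 2.82; 14 and 2.82 without library 28). S100a8, given above with the antimicrobial genes, was counted in this list too. Cxcr2, the receptor itself, went from 0.523, 2.64, 1.43 and 1.301 to 25.9, 20.995, 17.5 and 30.2 CPM (log2 change 4.10 ± 0.41, adjusted p = 4.22e-07). Retnlg, a resistin-like gene of neutrophils, stood at 0, 0.264, 0.159 and 0.5003 CPM in vehicle and 3.24, 6.23, 3.804 and 5.14 CPM in IL-23 libraries (log2 change 4.43 ± 0.88, adjusted p = 3.67e-04; 5.18 without vehicle library 67). Ly6g, a defining surface marker of mouse neutrophils, was near 0, with 1 count with vehicle and 9 with IL-23 and a ratio of 13.97 (1.94 to 612). Library 28 held 4 of the 9 counts (adjusted p = 0.0436, and 0.104 without library 28, in the edgeR fit with no filter). The granule genes of neutrophil precursors had few counts in either group: Elane had 4 counts with vehicle and 0 with IL-23, Mpo had 17 and 7, Ltf had 7 and 13, and Ngp had 0 and 3, and none of these 4 was called in the fit with no filter. Camp, given above and also a neutrophil granule gene, was called lower in that fit (27 counts with vehicle and 3 with IL-23).

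Monocyte and macrophage markers rose for 20 of 25 members with a median of 1.83, which was 1.02 with 18 rises when library 28 was left out. Clec4e (Mincle, a pattern receptor of myeloid cells) stood at 0.392, 2.24, 0.238 and 3.202 CPM in vehicle and 9.73, 45.5, 10.8 and 20.1 CPM in IL-23 libraries (log2 change 3.97 ± 0.66, adjusted p = 6.87e-05; 3.32 without library 28 and 4.77 without vehicle library 67). Fcgr4, an activating Fc receptor gene, had 5.51, 39.9, 4.16 and 4.97 CPM in IL-23 libraries against 0.327, 0.528, 0.238 and 0.801 CPM in vehicle libraries, high above all in library 28 (log2 change 4.91 ± 0.86, adjusted p = 1.13e-04; 3.42 ± 0.59 without it). The resident macrophage genes Adgre1 (0.74 ± 0.45), Csf1r (0.40 ± 0.34) and Cd163 (0.19 ± 0.30) were not called in either fit. The list mean was 5.65 log2 CPM in library 28, 3.71 to 4.27 in libraries 25, 31 and 61 and 2.62 to 2.92 in vehicle libraries.

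Among dendritic and Langerhans cell genes 9 of 16 rose (median 0.95, 0.46 without library 28). Ccl17, a chemokine for CCR4-bearing T cells, went from 0.85005, 3.69, 1.59 and 0.4003 to 7.13, 8.54, 17.9 and 4.48 CPM (log2 change 2.66 ± 0.48, adjusted p = 1.44e-04; 3.31 without vehicle library 50). Ccr7, the receptor that guides dendritic cells to lymph nodes, went from 0.523, 0.6598, 0.397 and 0.5003 to 2.76, 5.08, 2.26 and 1.66 CPM (log2 change 2.52 ± 0.44, adjusted p = 1.13e-04). Cd207 (langerin), which defines Langerhans cells, was not called (0.45 ± 0.25).

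T cell genes depended on library 28. With it 12 of 18 rose (median 1.09), and without it 4 rose and 1 fell (median 0.49). Plain library sizes gave 7 rises. Cd3e, a chain of the T cell receptor complex, stood at 2.22, 2.903, 2.86 and 2.602 CPM in vehicle and 4.22, 9.92, 3.68 and 3.32 CPM in IL-23 libraries. The groups did not overlap, but library 28 was more than 5 CPM above the others (log2 change 1.03 ± 0.34, adjusted p = 0.0138). The call was lost without it (0.52 ± 0.28, adjusted p = 0.113) and with plain library sizes. Trac, the constant part of the αβ receptor, had 1.78, 7.27, 1.66 and 1.49 CPM in IL-23 and 1.18, 0.528, 0.794 and 0.5003 CPM in vehicle libraries, and its call was likewise lost without library 28 (1.98 to 1.06, adjusted p = 0.0654).

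Icos, a costimulatory receptor of activated T cells, was called in both fits: it went from 0.785, 0.924, 1.03 and 0.4003 to 3.89, 16.8, 2.62 and 3.48 CPM (log2 change 3.09 ± 0.54, adjusted p = 1.09e-04; 2.06 ± 0.34 without library 28). Members that rose without library 28 were Icos, Cd3d (1.07), Lck (0.92) and Thy1 (0.41), while Cd28 fell (-1.18). The γδ receptor gene Trdc was not called with (0.32) or without library 28 (-0.44). Foxp3, the factor of regulatory T cells, was under the filter with 14 counts with vehicle and 12 with IL-23, 8 of them in library 28 (adjusted p = 0.696 in the fit with no filter).

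Gzmb, a granule protease gene of cytotoxic cells, stood at 0.262, 0.264, 0.397 and 0.2001 CPM in vehicle and 2.27, 23.3, 3.68 and 1.49 CPM in IL-23 libraries and rose in both fits (log2 change 4.73 ± 0.80, adjusted p = 8.96e-05; 3.12 ± 0.45 without library 28). It was the only one of 5 cytotoxic and NK cell genes past the filter to be called, and 16 are in the table. Under the filter, Gzma, another granule protease gene, had 0 counts with vehicle and 31 with IL-23, 22 of them in library 28, at least 16.04-fold higher (adjusted p = 0.00205, and 0.0103 without library 28, in the edgeR fit with no filter). Fasl, the gene of the death ligand, had 0 counts with vehicle and 5, 8, 0 and 0 in the IL-23 libraries. Against the floor of 3 counts it was at least 6.73-fold higher, and 3.68-fold without library 28. Every count that remained without library 28 was in library 25. In the edgeR fit with no filter the adjusted p was 0.0113 with library 28 and 0.0386 without it. Blk, a kinase gene of B cells and of some γδ T cells, had 3.24, 5.65, 1.31 and 1.99 CPM in IL-23 and 0.654, 0.6598, 0.715 and 0.5003 CPM in vehicle libraries (log2 change 2.25 ± 0.47, adjusted p = 5.37e-04). The B cell genes Ms4a1 (0 counts with vehicle and 2 with IL-23) and Cd79a (3 and 1) were under the filter.

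The interferon gamma gene Ifng gives the plainest case of a value that rests on library 28. It had 2 counts in the vehicle group, both in library 67, and 30 in the IL-23 group, 29 of them in library 28 and 1 in library 25. In the edgeR fit with no filter its adjusted p was 0.0294 with library 28 and 0.996 without it, and the ratio of levels went from 23.3 (5.91 to 201) to 1.103 (0.0187 to 21.2).

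Genes induced by interferon gamma rose in libraries 25, 31 and 61 too, by less. With all libraries 17 of 18 tested members rose (median 2.20), and without library 28 13 rose (median 0.78). Library 28 was the highest IL-23 library for all 18, with a list mean of 6.77 log2 CPM against 3.99 to 4.07 in libraries 25, 31 and 61 and 2.91 to 3.37 in vehicle libraries. The T cell list mean moved with it, at 3.45 against 1.69 to 2.10 in libraries 25, 31 and 61, as did the macrophage list given above; their part in the interferon values was not tested. DESeq2 gave no adjusted p for 12 of the 18 genes and called 5 of the other 6.

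Cxcl9 (gene ID 17329, chromosome 5, 92321331 to 92328079), a chemokine for CXCR3-bearing T cells, stood at 0.719, 2.51, 1.99 and 2.602 CPM in vehicle and 7.297, 135, 8.68 and 3.98 CPM in IL-23 libraries (log2 change 4.39 ± 0.94, adjusted p = 7.31e-04; 1.87 ± 0.45 without library 28). Cxcl10, its relative, had 15.2, 154, 16.8 and 12.9 CPM in IL-23 and 2.16, 3.43, 2.14 and 4.103 CPM in vehicle libraries (log2 change 4.12 ± 0.75, adjusted p = 1.62e-04; 2.40 ± 0.36 without library 28). Gbp2, a GTPase gene of cell-autonomous defence, went from 10.8, 18.9, 14.6 and 18.6 to 54.2, 607, 49.9 and 38.8 CPM (log2 change 3.61 ± 0.72, adjusted p = 3.94e-04; 1.64 ± 0.24 without library 28). These 3 genes kept non-overlapping groups, with library 28 more than 9-fold above the next IL-23 library for each.

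For Gbp5 and Gbp6 the values outside library 28 overlapped those of vehicle libraries. Gbp5 had 2.59, 61.3, 3.92 and 4.81 CPM in IL-23 and 2.16, 3.56, 1.75 and 3.502 CPM in vehicle libraries, and its change went from 2.79 ± 0.80 to 0.52 ± 0.43 without library 28 (adjusted p = 0.00623 and 0.305). Gbp6 had 1.297, 30.1, 2.73 and 1.66 CPM in IL-23 and 1.96, 1.85, 1.43 and 2.402 CPM in vehicle libraries, and its change went from 2.27 ± 0.71 to 0.05 ± 0.29 (adjusted p = 0.0109 and 0.887). Iigp1, an immunity-related GTPase gene, had 13.8, 210.1, 8.68 and 10.4 CPM in IL-23 and 5.69, 7.52, 5.56 and 6.404 CPM in vehicle libraries and went from 3.30 ± 0.83 to 0.82 ± 0.34 (adjusted p = 0.00247 and 0.0464). Its IL-23 values outside library 28 were lower than in that library but above every vehicle value. Irf1, the interferon regulatory factor, was less dependent on that library (2.24 with and 1.64 without it, called in both).

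Promoters are shown here because the levels of these genes moved together and because interferon-activated factors bind short motifs near gene starts. The motifs searched, on both strands of the 250 bases before the RefSeq start (GRCm38.p6), were GAAANNGAA, an interferon response motif bound by IRF proteins, and TTCNNNGAA, the site of STAT dimers. Of the 18 interferon gamma genes tested, 13 had a promoter in the table, and 11 of these held GAAANNGAA (84.6%) and 6 held TTCNNNGAA (46.2%). Among all 11462 tested genes with a promoter the shares were 6.19% and 5.90%, and among all 27025 promoters, taking 1 a gene, 7.16% and 7.18%. The list was drawn up from known interferon targets, so this is a description of its members. The following 6 promoters, picked after their values were seen, are printed 5′ to 3′ along the gene, with motif matches in capitals.
Cxcl9 (chr5:92328080-92328329, minus strand): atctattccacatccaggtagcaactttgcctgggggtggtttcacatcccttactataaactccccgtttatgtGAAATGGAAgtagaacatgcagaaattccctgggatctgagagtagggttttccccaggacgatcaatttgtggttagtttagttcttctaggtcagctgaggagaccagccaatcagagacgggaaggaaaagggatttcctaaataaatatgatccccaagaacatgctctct
Cxcl10 (chr5:92348890-92349139, minus strand): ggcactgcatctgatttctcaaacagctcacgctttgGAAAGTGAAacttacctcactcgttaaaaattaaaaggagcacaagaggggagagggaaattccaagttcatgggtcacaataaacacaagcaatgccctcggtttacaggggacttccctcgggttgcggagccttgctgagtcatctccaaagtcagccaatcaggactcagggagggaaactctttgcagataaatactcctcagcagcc
Gbp2 (chr3:142620413-142620662, plus strand): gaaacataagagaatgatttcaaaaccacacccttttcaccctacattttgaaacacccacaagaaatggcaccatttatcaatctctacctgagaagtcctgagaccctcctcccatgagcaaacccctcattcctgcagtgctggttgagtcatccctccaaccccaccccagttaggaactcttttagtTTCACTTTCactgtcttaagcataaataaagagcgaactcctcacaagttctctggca
Gbp5 (chr3:142496684-142496933, plus strand): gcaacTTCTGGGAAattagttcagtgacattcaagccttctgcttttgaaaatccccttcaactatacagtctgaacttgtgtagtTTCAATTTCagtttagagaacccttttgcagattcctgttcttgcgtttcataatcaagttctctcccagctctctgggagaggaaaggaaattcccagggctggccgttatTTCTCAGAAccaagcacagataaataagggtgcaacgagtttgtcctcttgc
Igtp (chr11:58199306-58199555, plus strand): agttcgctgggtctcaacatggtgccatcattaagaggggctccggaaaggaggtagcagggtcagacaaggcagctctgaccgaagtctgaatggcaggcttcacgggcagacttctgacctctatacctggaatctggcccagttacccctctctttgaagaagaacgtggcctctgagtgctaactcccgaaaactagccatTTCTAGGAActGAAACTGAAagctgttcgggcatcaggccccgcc
Irgm2 (chr11:58214727-58214976, plus strand): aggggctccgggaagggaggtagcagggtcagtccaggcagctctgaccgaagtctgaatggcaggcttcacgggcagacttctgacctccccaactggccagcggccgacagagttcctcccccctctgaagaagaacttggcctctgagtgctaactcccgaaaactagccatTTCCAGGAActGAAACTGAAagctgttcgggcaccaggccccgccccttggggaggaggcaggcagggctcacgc

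The interferon response match ended 49 bases before the start in Gbp2, 166 in Cxcl9, 204 in Cxcl10 and 155 in Gbp5, which also held 2 STAT matches. Igtp and Irgm2, genes of immunity-related GTPases that lie close together on chromosome 11, each held 1 match of either kind, 2 bases apart, with no overlap. Igtp rose in both fits (3.04 with and 1.60 without library 28), as did Irgm2 (1.98 and 0.55). Of the 451 genes whose log2 fold change was larger by over 0.585 with library 28 than without it, 338 had a promoter, and 69 of these (20.4%) held GAAANNGAA. In the type I interferon list 9 of 18 did (50.0%), and in the STAT3 and NF-κB list 2 of 18 did (11.1%). The STAT motif TTCNNNGAA was in 37 of the 338 (10.9%), and in 3 of 18 in each of the type I interferon and the STAT3 and NF-κB lists (16.7%). The 451 genes were chosen by their values in library 28, itself singled out for high interferon genes. They include members of the interferon lists, so their motif shares are a description and no test.

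**Figure D3:**
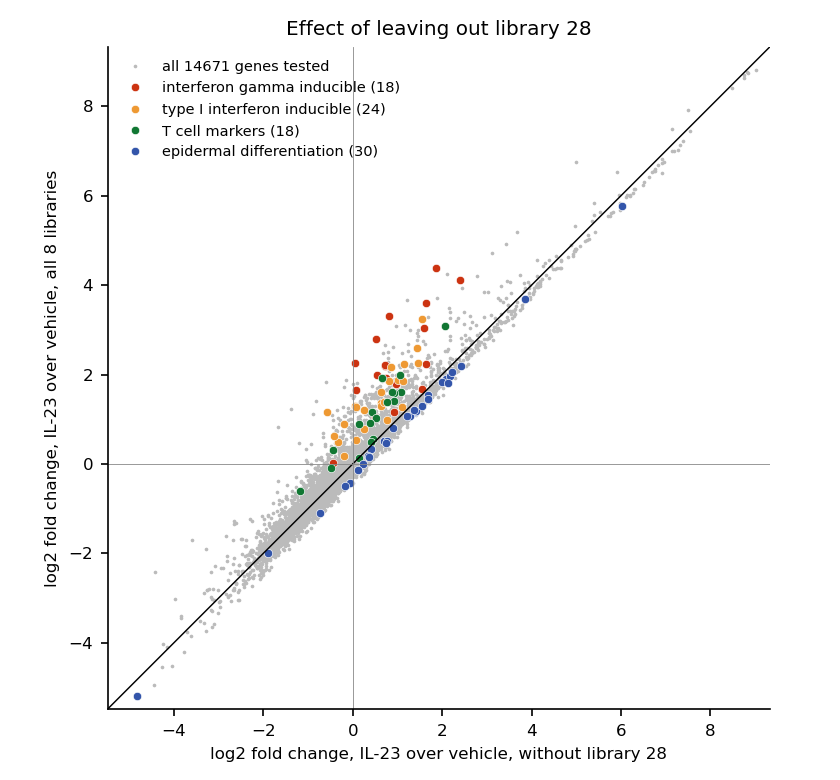
Log2 fold change of IL-23 over vehicle in intraperitoneal libraries with all 8 libraries (vertical axis) against the value without library 28 (horizontal axis), 1 point per gene tested, with the line of equal values. Interferon-inducible and T cell genes lie above the line, up to 4.39 against 1.87 for Cxcl9, and epidermal differentiation genes lie below it.

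Type I interferon genes rose for 16 of 24 members with library 28 (median 1.30) and 11 without it (median 0.63), 13 rose under plain library sizes, and library 28 was the highest for all 24. Isg15, a ubiquitin-like antiviral protein, went from 6.28, 10.03, 4.53 and 5.504 to 14.9, 55.3, 10.7 and 13.1 CPM (log2 change 1.87 ± 0.44, adjusted p = 0.00138; 1.01 ± 0.26 without library 28). Zbp1, a sensor of unusual nucleic acids, went from 1.57, 2.64, 1.27 and 2.001 to 6.81, 52.03, 2.85 and 6.47 CPM (log2 change 3.25 ± 0.70, adjusted p = 7.58e-04; 1.55 ± 0.37 without library 28). Oas3, an antiviral synthetase gene, had 2.27, 16.6, 1.55 and 5.14 CPM in IL-23 and 0.458, 1.58, 1.35 and 1.101 CPM in vehicle libraries with overlapping groups (2.59 and 1.45, called in both fits).

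MHC class I antigen processing was the interferon-linked list least changed by leaving out library 28: all 15 tested members rose in both fits, with medians of 1.06 and 0.81. Under plain library sizes 13 rose. Tap1, a peptide transporter subunit, went from 51.1, 77.5, 54.3 and 65.1 to 109, 289, 84.7 and 103 CPM (log2 change 1.25 ± 0.28, adjusted p = 0.00116; 0.70 ± 0.14 without library 28). Every IL-23 library was above every vehicle library for Tap1. Psmb8, an immunoproteasome subunit gene, went from 18.1, 29.03, 23.3 and 19.1 to 58.4, 222, 50.04 and 44.3 CPM (log2 change 2.09 ± 0.40, adjusted p = 3.04e-04; 1.21 ± 0.18 without library 28). H2-Q7, a nonclassical class I gene with close copies and an uncertain count, had 4.702, 15.9, 2.14 and 3.15 CPM in IL-23 and 1.37, 2.11, 1.75 and 2.001 CPM in vehicle libraries (1.88 and 0.90).

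The calls of MHC class II genes did depend on library 28. All 9 rose with it (median 0.94), 4 without it (median 0.49), and 4 under plain library sizes. H2-Aa, a class II chain, stood at 164, 205, 182 and 135 CPM in vehicle and 229, 359.6, 209.7 and 184 CPM in IL-23 libraries with overlapping groups (log2 change 0.52 ± 0.22, adjusted p = 0.0461; 0.29 ± 0.19, adjusted p = 0.191, without library 28). Its call was also lost without IL-23 library 25 and without vehicle libraries 49, 59 or 67 (adjusted p = 0.0542, 0.0843, 0.0584 and 0.123) and with plain library sizes. H2-DMa, which loads peptides, was called in both fits (9.68, 13.99, 17.3 and 7.91 to 25.8, 40.95, 19.3 and 22.7 CPM; 1.16 and 0.90). Ctss, the cathepsin S gene, had 82.05, 585, 116 and 129.8 CPM in IL-23 and 73.5, 85.9, 81.3 and 73.5 CPM in vehicle libraries (1.55 ± 0.45; 0.49 ± 0.21 without library 28).

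Of 7 tested checkpoint genes 6 rose with library 28, 3 without it and 3 under plain library sizes. Cd274, the gene of PD-L1, went from 28.6, 32.99, 31.9 and 34.2 to 58.1, 105, 60.98 and 60.4 CPM and rose in both fits (log2 change 1.16 ± 0.17, adjusted p = 2.68e-05; 0.92 ± 0.12 without library 28). Pdcd1lg2, the gene of PD-L2, rose as well (2.05 and 1.93). Ctla4, an inhibitory receptor of T cells, had 1.46, 10.5, 2.38 and 0.829 CPM in IL-23 and 0.785, 1.06, 1.11 and 1.201 CPM in vehicle libraries, and its call was lost without library 28 (1.93 to 0.67, adjusted p = 0.155). Ido1, a tryptophan-degrading enzyme gene, had 8 counts with vehicle and 5 with IL-23.

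**Figure D4:**
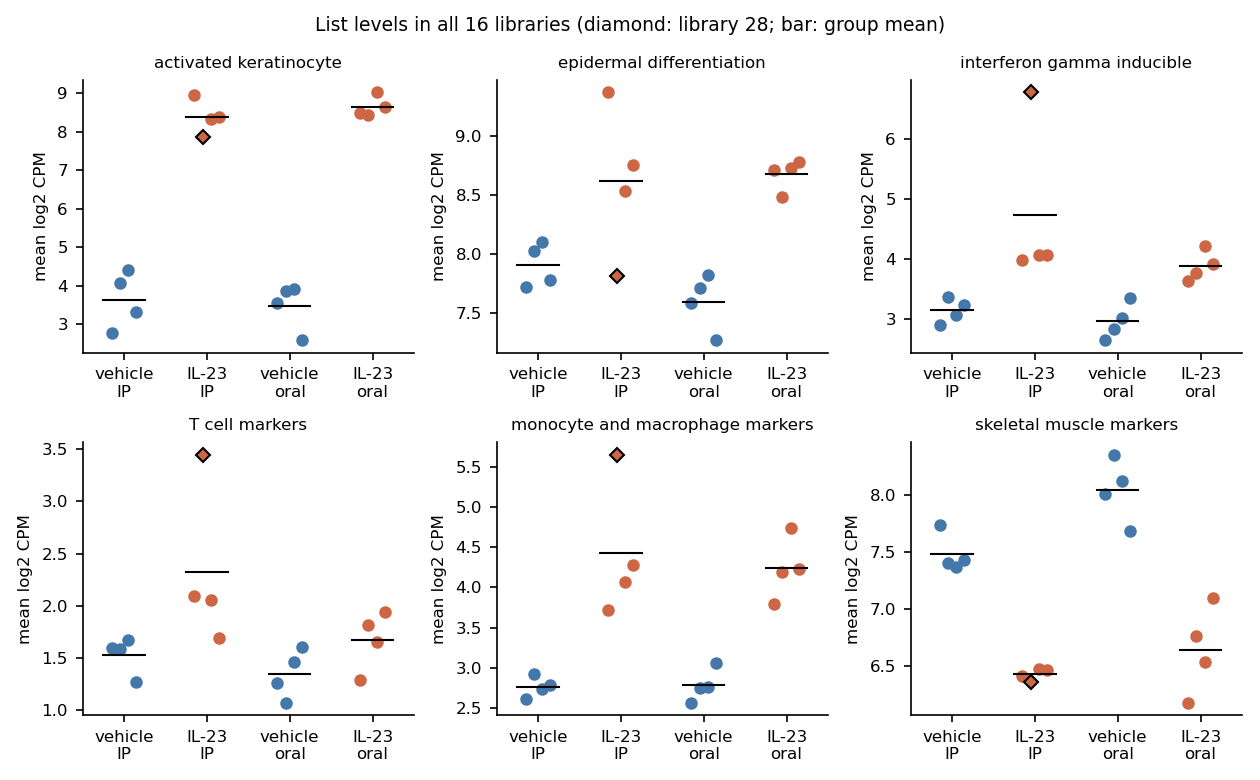
Mean log2 CPM of 6 gene lists in all 16 libraries, by agent and dosing route (IP, intraperitoneal), with bars at the group means; vertical axes do not start at 0. Library 28 (diamond) stands at 6.77 for interferon gamma inducible genes and 3.45 for T cell markers, above every other library, and at 7.82 for epidermal differentiation, below the 7 other IL-23 libraries.

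Markers of several tissues were lower in IL-23 libraries. Of 25 skeletal muscle genes, 24 fell and none rose (median -1.02, and -0.98 without library 28). Acta1, skeletal α-actin, went from 776, 655, 590.1 and 628 to 377, 367, 333 and 373 CPM (log2 change -0.87 ± 0.17, adjusted p = 3.97e-04). The groups of Acta1 lay clear of each other. Myh2, a fast myosin heavy chain gene, went from 172, 172, 105 and 132 to 34.5, 45.2, 41.6 and 39.1 CPM (log2 change -1.85 ± 0.17, adjusted p = 1.74e-07). List means were 7.37 to 7.73 log2 CPM in vehicle and 6.36 to 6.48 in IL-23 libraries, with vehicle library 49 the highest.

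Adipocyte genes fell for 14 of 15 (median -1.03). Plin1 (perilipin, which coats fat droplets) went from 26.5, 38.1, 43.4 and 36.9 to 3.73, 8.65, 11.9 and 8.62 CPM (log2 change -2.11 ± 0.29, adjusted p = 1.34e-05), and Car3, an abundant carbonic anhydrase of fat and muscle, from 177, 160.5, 186 and 165 to 38.9, 32.6, 54.9 and 37.6 CPM (log2 change -2.07 ± 0.16, adjusted p = 4.70e-08). Cartilage genes fell for 11 of 13 (median -1.54). Col9a2, a collagen IX chain, went from 53.9, 36.3, 27.0002 and 27.1 to 10.9, 5.88, 13.9 and 8.79 CPM (log2 change -1.88 ± 0.29, adjusted p = 3.61e-05), while Col2a1, the main cartilage collagen, was not called (-0.25 ± 0.30).

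Schwann cell and nerve genes fell for 10 of 11 (median -1.43). Sox10, the factor of neural crest lineages, went from 18.3, 11.9, 14.3 and 11.01 to 4.54, 3.46, 4.04 and 4.15 CPM (log2 change -1.79 ± 0.18, adjusted p = 4.59e-07). All 7 tested melanocyte genes fell (median -1.97), among them Tyrp1, a melanin enzyme, from 16.1, 13.2, 10.3 and 13.7 to 3.08, 1.85, 2.73 and 1.99 CPM (log2 change -2.47 ± 0.32, adjusted p = 6.49e-06). Slc24a5, a melanosome exchanger gene, had 2.68, 1.85, 3.097 and 0.5003 CPM in vehicle and 0.324, 0.115, 0.238 and 0.497 CPM in IL-23 libraries (log2 change -2.86 ± 0.67, adjusted p = 0.001401). Leaving out library 28 changed no count of falls in the muscle, adipocyte, cartilage, Schwann cell or melanocyte lists. Whether smaller shares of these tissues in the IL-23 samples account for part of the other falls and rises was not tested.

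Mast cell genes fell for 9 of 10 (median -1.28), and for 8 without library 28 (median -1.39). Cpa3, a mast cell protease gene, had 28.8, 17.5, 29.1 and 20.5 CPM in vehicle and 4.38, 18.2, 8.56 and 6.301 CPM in IL-23 libraries, where library 28 reached the vehicle range (log2 change -1.33 ± 0.36, adjusted p = 0.00413; -1.87 ± 0.33 without it). Mrgprb2, the receptor through which peptides activate mast cells, went from 7.52, 3.56, 4.53 and 5.003 to 0.649, 0.346, 0.475 and 0 CPM (log2 change -3.76 ± 0.47, adjusted p = 4.68e-06). Hdc, histidine decarboxylase, which neutrophils also express, rose against the list (4.32, 9.896, 3.89 and 12.2 to 45.4, 38.1, 31.02 and 81.2 CPM; log2 change 2.74 ± 0.47, adjusted p = 1.08e-04). Among type 2 genes 5 of 9 rose and 1 fell. Il4ra, the receptor for IL-4 and IL-13, went from 26.4, 42.9, 35.6 and 28.4 to 138, 214, 119 and 111 CPM (log2 change 2.14 ± 0.22, adjusted p = 5.38e-07), and Ccl8, a chemokine gene, had 81.6, 281, 67.9 and 111 CPM in IL-23 libraries (log2 change 3.13 ± 0.44, adjusted p = 1.36e-05; 2.50 without library 28). Tslp, a keratinocyte cytokine of type 2 responses, was the member that fell (-0.89).

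Lipid synthesis and sebaceous genes fell for 16 of 25 and rose for 2 (median -0.64). Scd1, the Δ9 desaturase of sebocytes and fat, went from 15244, 19117, 15489 and 19709 to 5824, 5692, 8769 and 7014 CPM (log2 change -1.35 ± 0.15, adjusted p = 1.39e-06). Elovl6, a fatty acid elongase gene, went from 3125, 2815, 3124 and 3010.1 to 883, 921, 1010.0 and 948 CPM, with tight groups (log2 change -1.68 ± 0.18, adjusted p = 1.03e-06). Mc5r, the melanocortin receptor of sebaceous glands, fell by 2.15 on the log2 scale. Sqle, an enzyme gene of cholesterol synthesis, was among the members that rose (0.49). Hair follicle genes were mixed, with 3 rises and 5 falls among 14, and with 1 rise and 6 falls under plain library sizes. Msx2 (-1.66) and Lef1 (-1.53), factors of the hair matrix, and Lgr5 (-1.29), of follicle stem cells, fell, whereas Krt75 rose (1.35).

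Fibroblast genes changed their count with library 28. With it 3 of 18 rose and 6 fell (median -0.20), and without it 3 rose and 11 fell (median -0.82). Under plain library sizes 1 rose and 6 fell. The list mean was 7.45 log2 CPM in library 28, above all vehicle libraries (6.79 to 7.31), and 6.18 to 6.52 in libraries 25, 31 and 61, below them all. Col1a1, the main dermal collagen, went from -0.15 ± 0.35, not called, to -0.79 ± 0.23 (adjusted p = 0.00601) without it. Mfap4, a microfibril gene, fell in both fits (53.03, 31.9, 36.7 and 41.8 to 9.57, 10.8, 8.68 and 12.6 CPM; log2 change -1.98 ± 0.23, adjusted p = 2.23e-06). Tnc (tenascin C, a matrix protein of injury) rose, from 57.6, 77.2, 98.2 and 60.5 to 179, 537, 217 and 170.1 CPM (log2 change 1.91 ± 0.31, adjusted p = 5.74e-05; 1.38 without library 28).

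Sele, E-selectin, had 5.51, 29.8, 8.32 and 5.47 CPM in IL-23 and 2.48, 3.96, 5.003 and 3.702 CPM in vehicle libraries, and its call was lost without library 28 (1.73 ± 0.57 to 0.81 ± 0.47, adjusted p = 0.144). Selp, P-selectin, was called in both fits (1.79 and 1.20), as was Icam1 (1.37 and 1.08). Prox1, the lymphatic factor, fell (-1.68), and Pecam1, the pan-endothelial marker, was not called (0.10 ± 0.21). In the list of endothelial and leukocyte adhesion genes 4 of 15 rose and 2 fell with library 28, 2 rose and 4 fell without it, and 3 rose and 4 fell under plain library sizes. Of 15 matrix remodelling genes 7 rose and 1 fell with library 28, and 6 rose and 4 fell without it. The rises were led by Plaur, the urokinase receptor (4.32, 6.99, 5.48 and 5.804 to 30.8, 31.03, 24.2 and 47.6 CPM; log2 change 2.58 ± 0.32, adjusted p = 4.62e-06), and Timp1, a protease inhibitor (2.58; 2.14 without library 28). Complement and acute phase genes rose for 10 of 17 with library 28 (median 1.05), and 9 rose and 4 fell without it (median 0.52).

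Glycolysis genes rose for 14 of 18 (median 0.69; 11 under plain library sizes). Pkm, pyruvate kinase, went from 342, 409.7, 322 and 358 to 1056, 805, 735 and 826 CPM (log2 change 1.26 ± 0.12, adjusted p = 3.51e-07). Oxidative phosphorylation genes rose for 14 of 18 and fell for 3, with 10 rises under plain library sizes. The largest rise was that of Ndufa4, a cytochrome oxidase subunit gene (232, 243, 222 and 214 to 966, 633, 685 and 735 CPM; log2 change 1.73 ± 0.12, adjusted p = 1.07e-08). The members that fell, Cox6a2 (-0.86), Cox7a1 (-1.25) and Cox8b (-0.77), encode the subunit forms of heart and skeletal muscle, whose other markers were lower as given above.

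Clock genes fell for 10 of 17 and rose for 2 (median -0.72; 13 and 1 under plain library sizes). Hlf, a PAR bZIP output factor, went from 242, 225, 224 and 257 to 81.2, 59.3, 74.2 and 100.5 CPM (log2 change -1.59 ± 0.12, adjusted p = 1.91e-08), and Bhlhe41, a repressor, fell by 1.77 on the log2 scale. The core activators Arntl (-0.13 ± 0.16) and Clock (-0.06 ± 0.08) were not called. The labels give no time of harvest. Of glucocorticoid response genes 5 of 11 fell and 2 rose. Tsc22d3 (GILZ) went from 146, 200.04, 126 and 106 to 40.9, 48.6, 53.6 and 61.02 CPM (log2 change -1.50 ± 0.17, adjusted p = 1.90e-06), Zbtb16 fell (-1.68), and the receptor gene Nr3c1 fell (-1.05), while the metallothionein genes Mt1 (0.78) and Mt2 (0.81) rose.

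Immediate early and stress genes rose for 8 of 15, and for 4 under plain library sizes. Hmox1, heme oxygenase, had 99.9, 378, 92.4 and 104 CPM in IL-23 and 56.5, 60.7, 53.3 and 46.6 CPM in vehicle libraries (log2 change 1.64 ± 0.35, adjusted p = 6.84e-04; 0.88 ± 0.14 without library 28). Atf3, a stress-induced factor, stood at 8.57, 12.01, 9.93 and 6.805 CPM in vehicle and 16.5, 31.03, 47.8 and 16.4 CPM in IL-23 libraries (log2 change 1.61 ± 0.59, adjusted p = 0.0255), and its call was lost without IL-23 library 31 (1.22, adjusted p = 0.102), without vehicle libraries 49 or 67 (adjusted p = 0.0559 and 0.0627) and with plain library sizes. Irg1, which makes itaconate in activated macrophages, went from 0.785, 5.01, 2.06 and 7.51 to 29.5, 68.1, 21.6 and 57.2 CPM (log2 change 3.63 ± 0.57, adjusted p = 4.08e-05; 4.27 without vehicle library 67). Nos2, the inducible nitric oxide synthase gene, was under the filter with 43 counts with vehicle and 130 with IL-23, 114 of them in library 28. Nppb, a natriuretic peptide gene that also serves itch neurons, had 9.24, 8.42, 6.2998 and 4.64 CPM in IL-23 libraries against 0.131, 0.132, 0.318 and 0 CPM in vehicle libraries (log2 change 5.43 ± 0.77, adjusted p = 1.67e-05; 6.11 without vehicle library 59).

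Several of the largest changes belonged to none of the lists. Uox (gene ID 22262, chromosome 3, 146597149 to 146631483), urate oxidase, known from the liver, went from 0.588, 0.132, 0.238 and 0.2001 to 186, 115, 122 and 161 CPM (log2 change 8.74 ± 0.38, adjusted p = 7.18e-11; 9.42 without vehicle library 49). Slc26a4 (gene ID 23985, chromosome 12, 31519814 to 31560055), the anion exchanger pendrin, had 1 count with vehicle and 403 with IL-23, a ratio of 626 with an interval of 112 to 24773. Its levels in IL-23 libraries were 13.9, 11.3, 12.5 and 18.9 CPM (adjusted p = 1.64e-07; fitted log2 change 8.64, and 10.09 without vehicle library 50, which held the 1 count).

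Among falls, Paqr7 (gene ID 71904, chromosome 4, 134496761 to 134510237), a membrane progestin receptor, went from 814, 142, 494 and 424 to 29.7, 41.1, 24.7 and 19.2 CPM. Vehicle library 50 was low within its group but still above all IL-23 libraries (log2 change -4.02 ± 0.66, adjusted p = 6.33e-05). Car6, a secreted carbonic anhydrase, went from 6.997, 3.83, 3.65 and 9.11 to 0.486, 0.115, 0 and 0.497 CPM (log2 change -4.54 ± 0.56, adjusted p = 3.82e-06). Neither gene had overlapping groups. Tgm7, a transglutaminase gene, had 3.79, 2.903, 2.06 and 3.602 CPM in vehicle and 0, 0.115, 0.594 and 0 CPM in IL-23 libraries (log2 change -3.85 ± 0.56, adjusted p = 2.19e-05; -5.68 without IL-23 library 31). Krtap3-2, a hair keratin-associated protein gene, had 17.7, 6.86, 5.08 and 13.5 CPM in vehicle and 0.324, 0, 0.594 and 0.497 CPM in IL-23 libraries (log2 change -4.94 ± 0.57, adjusted p = 1.91e-06). Scgb1b27, a secretoglobin gene, had 3.27, 6.202, 8.18 and 2.802 CPM in vehicle and 0.649, 0, 0 and 0.332 CPM in IL-23 libraries (log2 change -4.52 ± 0.75, adjusted p = 6.82e-05; -5.67 without IL-23 library 25). For each of these 3 genes at least 1 IL-23 library had no count, and every vehicle library had counts. Trpc4, a cation channel gene, had 90 counts with vehicle and 3 with IL-23, 19.3-fold lower with an interval of 6.404 to 95.5 (adjusted p = 9.72e-06; fitted log2 change -4.09, and -5.14 without IL-23 library 25). Mrgprb3, a receptor gene with close copies, had 70 and 2 counts, 22.5-fold lower with an interval of 6.01 to 189.8.

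Over all genes, 8292 calls were shared by the fits with and without library 28 and none of these had opposite signs, while 764 were made only with it (331 higher, 433 lower) and 691 only without it (308 higher, 383 lower). The log2 fold change was larger by over 0.585 with library 28 than without it for 451 genes. A single low library among 4 cannot lower a group mean by as much, so this limit counts only genes that were high in library 28. Leaving out library 25, 31 or 61 moved 29, 48 and 17 genes by as much. Library 28 was the highest of the 4 IL-23 libraries for 32.4% of genes and the lowest for 31.6%, against 28.4% and 29.6% for library 25.

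The 8 named genes raised most by library 28 were Ly6c2, Gbp6, Tlr8, Cd180, Cxcl9, Gbp5, Gm1966 and Iigp1, chosen for that difference and so described without a test of it. Ly6c2, a marker of inflammatory monocytes, had 1.95, 46.5, 1.43 and 4.31 CPM in IL-23 and 0.523, 1.32, 1.51 and 1.101 CPM in vehicle libraries, a log2 fold change of 3.66 with and 1.21 without library 28. Tlr8, an RNA sensor of myeloid cells, had 0.324, 9.11, 0.357 and 0.829 CPM in IL-23 and 1.24, 1.45, 2.14 and 1.501 CPM in vehicle libraries, so that libraries 25, 31 and 61 lay below every vehicle library and library 28 above (0.82 with and -1.66 without it). Cd180, a relative of the toll-like receptors, showed the same arrangement (0.486, 21.3, 1.19 and 1.33 CPM in IL-23 and 3.14, 2.51, 2.86 and 2.201 CPM in vehicle libraries; 1.22 and -1.39). With library 28 neither Tlr8 nor Cd180 was called by edgeR (adjusted p = 0.322 and 0.182). Without it both were called lower (adjusted p = 0.00534 and 0.0299). The 8 genes lowered most, among them Grik4, Kcnk3, Dnajc22 and Krtap3-2, had 0 counts in library 28 and low counts elsewhere, at most 1.78 CPM in any IL-23 library.

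The intraperitoneal experiment was set against the oral one, which used 8 other libraries. Fold changes of the 14671 genes correlated with a Pearson r of 0.929 across genes, which share libraries and are not independent replicates, and 0.939 without library 28. Of all genes tested, 7818 were called in the same direction in both, 2 in opposite directions (Krtap26-1, -3.04 and 2.66, and Palld, 0.41 and -0.42, named after their values were seen), 1236 in the intraperitoneal and 1460 in the oral libraries only. The difference between the routes itself was called for 0 genes by edgeR (0%) with and without library 28 (0%), where 796 and 731 genes had an unadjusted p below 0.05 and the smallest adjusted p was 0.595 and 0.470. Limma-voom called 0 genes (789 at an unadjusted p below 0.05) and DESeq2 called 1 (740). That gene, named after its value was seen, was Rbm4, a splicing factor gene, with a change of -0.15 in intraperitoneal and 0.51 in oral libraries (difference -0.69 ± 0.14 and adjusted p = 0.0266 by DESeq2; edgeR adjusted p = 0.595).

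**Figure D5:**
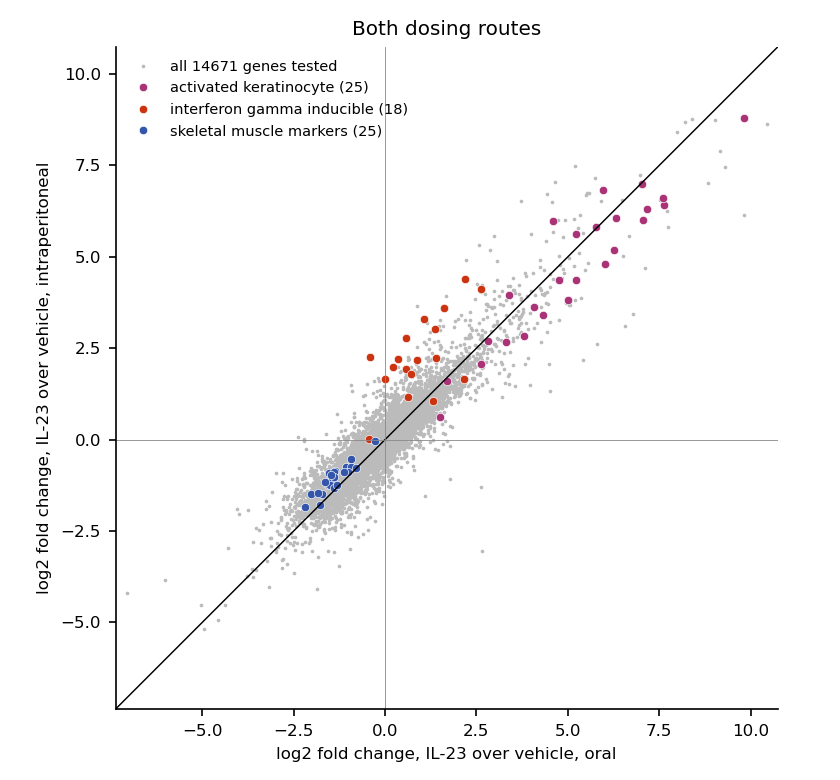
Log2 fold change of IL-23 over vehicle in intraperitoneal libraries (vertical axis) against that in oral libraries (horizontal axis), 1 point per gene tested, with the line of equal values. Points follow the line (r = 0.929), and 16 of 18 interferon gamma inducible genes lie above it, with medians of 2.20 and 0.79.

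The interferon gamma list had a median of 2.20 in intraperitoneal libraries, 0.78 without library 28 and 0.79 in oral libraries. T cell genes had medians of 1.09, 0.49 and 0.18, and macrophage genes 1.83, 1.02 and 1.37. Activated keratinocyte genes had 4.81 and 5.22 in the respective routes, antimicrobial genes 5.64 and 5.20, and muscle genes -1.02 and -1.41.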

How the data were processed

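Total RNA was sequenced from 16 mouse samples with a strand-marking Illumina total RNA kit, per the labels' protocols. The authors deposited 1 table of raw counts per gene. Per the submitters' processing notes, FastQC, STAR, featureCounts (Subread 1.5.0) and the GRCm38 build were used. Whether counting used strand, how it treated reads with several matches and which annotation it read is not stated in those sources, so reads of overlapping, antisense or near-identical genes cannot be told apart.

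Counts were fitted with edgeR 4.0.16 (R 4.3.3): TMM factors, the default expression filter with a minimum count of 10 over the 4 groups, quasi-likelihood tests on all 16 libraries with 12 residual degrees of freedom, and Benjamini-Hochberg adjustment with calls below 0.05. The standard error of a log2 fold change was its size divided by the square root of F. List levels are means of log2 CPM with a prior count of 2. Low-count ratios used pooled counts over scaled library sizes, with exact 95% binomial intervals and a floor of 3 counts. Intervals and floors cover counting error only. DESeq2 1.42.0, limma 3.58.1, other scalings and filters and leaving out each library were alternatives. The scripts were tested on simulated data. Named genes were 36 fixed genes, the 8 largest non-overlapping changes each way, up to 2 members per list, list members against their list's direction, and the 8 genes each way that library 28 moved most; others were picked after their values were seen. Members, lists and rules were chosen with earlier results of these data known. Sequences came from RefSeq (GRCm38.p6).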

Additional observations from a re-analysis of the deposited data

Results flagged for a closer look

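Among 182 groups of 4 values, 27 held a library whose gap to the nearest of the others, as a share of the group's range, was above Dixon's critical value for 4 samples. That value is passed by about 1 in 20 groups only where values are independent and normally distributed. Here the groups share libraries, some genes also belong to lists, and some groups had counts in a single library. The rate is therefore no reference for the 27 flagged groups, which are a description and no test. Library 28 was the highest in 14 of the 27 flagged groups and the lowest in 1. For single genes in CPM it stood highest among the IL-23 libraries for Isg15 (gap 0.905), Cd3e (0.864), Gbp2 (0.973), Ifng (0.952), Il17a (0.909), Cxcl9 (0.964), Foxp3 (0.901), Tap1 (0.879), Il17f (0.834), Icos (0.910) and Cd274 (0.938). For list means it stood highest for interferon gamma inducible genes (0.970), MHC class II genes (0.873) and endothelium (0.887), and lowest for the IL-20 subfamily (0.850). Library 28 had been singled out for high interferon and T cell genes, so its share of these cases is no independent evidence. No label separates library 28 from the other IL-23 libraries, and a cause was not tested.

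The other IL-23 cases were Ccl20 in library 25 (gap 0.913) and the adipocyte list in library 31 (0.919), both the highest of their group. Vehicle library 49 had the lowest IL-1 and IL-36 family mean (0.934) and adipocyte mean (0.831), and the highest muscle (0.844), cartilage (0.898) and melanocyte (0.960) means. Vehicle library 50 was the highest for S100a9 (0.977), and library 59 for Ccl20 (0.936). The 3 gaps equal to 1 came from counts in a single library: Ifng (2 counts) and Il22 (1 count) in vehicle library 67, and Slc26a4 (1 count) in vehicle library 50.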

How the results depend on the processing

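The count of calls stayed between 8306 and 9171 under every other scaling, filter, tool and choice of samples tried, and between 8279 and 9028 when each of the 16 libraries was left out. The number of genes higher was 2871 with plain library sizes, where the median over all genes moved to -0.23, and 4189 to 4556 when each library was left out. The difference between routes was called for 1 gene by DESeq2 and for 0 genes elsewhere. Leaving out library 28 kept the call, and for called genes the direction, of 119 of the 131 named genes, with 8 no longer called, 1 newly called and 3 reversed. Among those 119, Foxp3, uncalled, went from 0.38 to -0.62. Reversed values were those of Tlr8 (-1.66 without library 28, -1.24 under limma-voom with quality weights; -1.66 to 1.20 without a library), Cd180 (-1.39 without library 28; -1.39 to 1.59) and Gm1966 (-0.61 without library 28, -0.17 with quality weights; -0.61 to 2.19). Limma-voom, uncalled, also put Tlr8 (-0.44) and Cd180 (-0.19) below 0. For Tlr8, Cd180 and Gm1966 the cause was not tested beyond library 28's own counts. With plain library sizes 4 named genes lost their call, and the median fold change of 16 of 43 lists moved by more than the spread between replicates, against 12 lists without library 28. No paired analysis was possible because the numbers in the titles are not shared between groups. Genes with few counts, such as Il17a, Il23r and Ifng, limit what can be said of the cytokines themselves. The 4 libraries a group and the missing tissue, day and batch labels limit the rest.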
